A study of Drosophila melanogaster with 28 samples.

Results

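The 7 genes described here encode the RNAs and the proteins of the fly dosage compensation machinery: the non-coding RNAs roX1 and roX2 and the mRNAs of msl-1, msl-2, msl-3, mle and mof. They were chosen by name, and all 7 were found among the 16768 fly genes listed in each of the 3 expression tables of the series. The study sequenced RNA that came down with the translational repressor ME31B or with the poly(A)-binding protein PABP, together with the input lysate of each immunoprecipitation (IP), from 28 libraries, 15 of them inputs and 13 of them IPs. Each strain, age and antibody is represented by 1 library, so no value below has a replicate and no test across samples could be made.

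The libraries came from 5 sources. Embryos of the png50 strain, a weak hypomorph of the PNG kinase that acts at the egg-to-embryo transition, gave PABP-series inputs at 0-1 and 2-3 hr. Embryos described as png50 and precipitated with anti-GFP gave an ME31B IP and its input at 0-1 hr and are called eGFP-ME31B png50 here. Embryos of the w1118 strain were taken at 0-1, 1-2, 2-3, 3-4 and 4-5 hr, and PABP was precipitated with a synthetic antibody. Embryos of a trap line that carries eGFP on ME31B were taken at the same 5 ages, and ME31B was precipitated with anti-GFP. S2 cells, a cultured line first derived from late embryos, were transfected with eGFP-ME31B for the ME31B IP and served without a stated transfection for the PABP IP. The labels do not give the sex of the embryos, whole embryos were pooled, and in such bulk samples fewer cells of a type and less RNA per cell cannot be told apart. Embryos were broken in a buffer listed without detergent and S2 cells in a buffer with NP-40, and lysates of both were cleared by centrifugation, so a comparison of S2 cells with embryos also compares these buffers.

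Flies equalise X-linked expression between the sexes by raising transcription of the single male X chromosome. The MSL complex that does this contains the proteins MSL1, MSL2, MSL3, MLE and MOF and either of the partly redundant RNAs roX1 and roX2, and it acts in the nucleus. MSL2 is the component made in males only, because the female protein Sex-lethal blocks splicing and translation of msl-2 mRNA into protein, and the complex first assembles on the X chromosome of male embryos around the onset of zygotic transcription.

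Of the members, 3 are X-linked and 4 are autosomal. In the Ensembl annotation of the dm6 assembly, roX1 lies at chrX:3857230-3862697 on the minus strand with 5 transcripts of 3460 to 4832 nt, and it overlaps ec on the opposite strand. The roX2 gene lies at chrX:11579065-11580432 on the plus strand with 6 transcripts of 522 to 1368 nt. The mof gene lies at chrX:5873840-5876853 on the minus strand. On the autosomes, msl-1 lies at chr2L:18683720-18688800, msl-2 at chr2L:3462218-3466112, msl-3 at chr3L:7123213-7125533 and mle at chr2R:5974857-5980778, all on the minus strand. The msl-2 gene holds mir-4971 and another small non-coding annotation on its own strand, and msl-3 overlaps form3 on the opposite strand. The libraries were strand-specific.

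Levels are FPKM, fragments per kilobase of transcript scaled to the mapped fragments of the library, as deposited. The value of a single read, read from the lowest values of long genes with 1 transcript, put the depth at about 10.2 M to 16.9 M reads per library, and 69.4 to 97.8% of the low values fell within 0.2 of a whole read. A pair of w1118 inputs stood apart: the summed fly FPKM was 302478 at 0-1 hr and 125101 at 1-2 hr, against 1021830 to 1160520 in the 3 later w1118 inputs and 899038 to 1089180 in the 5 eGFP-ME31B inputs. Changes between inputs are therefore given relative to the median gene, as log2 of the ratio of FPKM + 0.1. The mRNA of me31B itself was at 1486 FPKM in the input of the transfected S2 cells, against 50.7 FPKM in the PABP-series S2 input. The png mRNA stood at 128 to 159 FPKM in the 3 png50 inputs, and since the allele is a hypomorph this level does not check the label. The 2 S2 inputs, the nearest thing to replicates in the series, differed with an SD over genes of 0.45 on the log2 scale, and w1118 and eGFP-ME31B inputs of the same age with an SD of 0.83 to 0.99.

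The roX1 RNA rose the most of the 7 between 0-1 and 4-5 hr in w1118. In eGFP-ME31B its rise, 3.95 on the log2 scale relative to the median gene, was close to the 3.85 of roX2. In eGFP-ME31B inputs roX1 was at 19.3 FPKM at 0-1 hr, 21.9 FPKM at 1-2 hr, 134 FPKM at 2-3 hr, 312 FPKM at 3-4 hr and 300.4 FPKM at 4-5 hr. In w1118 inputs it was at 1.06, 3.12, 97.1, 447 and 219 FPKM at the same ages. Levels were low in the first 2 collections of each strain and high in the last 3, with the highest value at 3-4 hr in each. From 3-4 hr on, roX1 exceeded 95.2 to 97.3% of all genes with at least 0.5 FPKM in the same input. At 0-1 hr it exceeded 4.65% of such genes in the w1118 input, which is of low sum, and 30.2% in the eGFP-ME31B input. Relative to the median gene, the 4-5 hr input was higher than the 0-1 hr input by 6.11 on the log2 scale in w1118 and by 3.95 in eGFP-ME31B.

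The 0-1 hr inputs differed widely in roX1. The eGFP-ME31B png50 input listed 0.068 FPKM, about 3.25 reads, against 19.3 FPKM, about 1110 reads, in the eGFP-ME31B input, in tables that were quantified separately. The 13 early zygotic marker genes summed to 36.0 FPKM in the eGFP-ME31B png50 input with 3 of 13 at 0.5 FPKM or more, against 62.1 FPKM with 7 of 13 in the eGFP-ME31B input. In the w1118 input of 0-1 hr the same markers summed to 19.5 FPKM with 5 of 13 at that level. Per 1000000 of summed fly FPKM these marker sums were 42.1 in eGFP-ME31B png50, 69.1 in eGFP-ME31B and 64.5 in w1118, with w1118 between the other inputs on that scale. The part of older embryos in the 0-1 hr collections was not tested.

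The shorter roX2 RNA was less abundant and, in eGFP-ME31B, later. Its inputs held 1.71, 0.39, 3.96, 12.9 and 26.2 FPKM from 0-1 to 4-5 hr in eGFP-ME31B. In w1118 they held 1.30, 0.49, 15.7, 40.7 and 39.6 FPKM. At 2-3 hr the RNA was therefore at 38.5% of its highest level in w1118, against 15.1% in eGFP-ME31B, and the w1118 input exceeded the eGFP-ME31B input by 2.29 on the log2 scale relative to the median gene, with the tables quantified separately. Of the 7 members, roX2 was the only 1 past 4-fold between the strains at 2-3 hr (5.07% of genes higher and 5.05% lower in w1118). The 0.39 FPKM at 1-2 hr corresponds to about 6 reads, so the dip there is close to the limit of detection. Relative to the median gene, 4-5 hr inputs exceeded 0-1 hr inputs by 3.38 in w1118 and by 3.85 in eGFP-ME31B on the log2 scale.

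The mRNA of msl-2, which encodes the RING-finger subunit that limits assembly, was near the bottom of the expressed genes at first. It stood at 2.72, 2.48, 10.9, 18.6 and 12.9 FPKM from 0-1 to 4-5 hr in eGFP-ME31B inputs, and at 0.93, 0.44, 17.9, 21.5 and 15.7 FPKM in w1118 inputs. It peaked at 3-4 hr in each strain. The 4-5 hr input was higher than the 0-1 hr input by 2.49 in w1118 and by 2.2 in eGFP-ME31B on the log2 scale relative to the median gene. The w1118 level of 0.93 FPKM at 0-1 hr corresponds to about 40.3 reads.

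At 2-3 hr, msl-2 had reached a larger part of its own highest FPKM than either roX RNA. It was at 83.3% of its highest level in w1118, where roX2 was at 38.5% and roX1 at 21.7%. In eGFP-ME31B it was at 58.6%, where roX1 was at 42.8% and roX2 at 15.1%. By this measure msl-2 came before the roX RNAs in each strain, while the order of roX1 and roX2 differed. By change over 0-1 hr relative to the median gene, roX1 was ahead at 2-3 hr. In w1118 roX1 was at 5.05, msl-2 at 2.78 and roX2 at 2.15 on the log2 scale. In eGFP-ME31B they were at 2.72, 1.9 and 1.1. At 1-2 hr in w1118, between inputs of low sum, roX1 was at 2.78 and msl-2 at 0.39. In eGFP-ME31B they were then at 0.18 and -0.12. With 1 library per age the shares and changes carry no error.

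**Figure D1:**
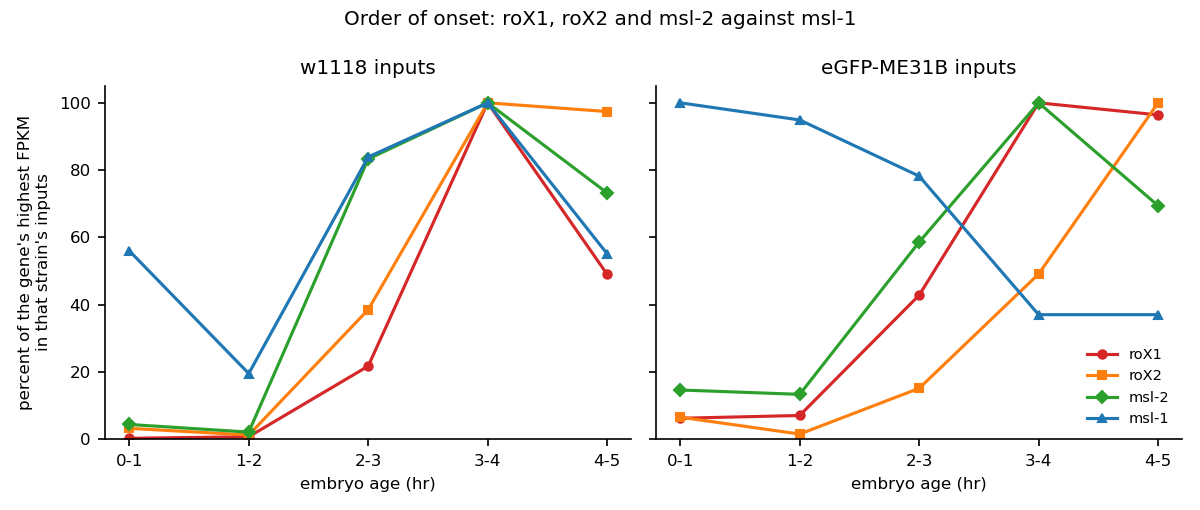
Input FPKM of roX1, roX2, msl-2 and msl-1 as a percentage of the highest of the 5 embryo ages of the same strain (vertical axis, percent), by embryo age in hours (horizontal axis), for w1118 inputs and eGFP-ME31B inputs, 1 library per point. At 2-3 hr msl-2 was at 83.3% in w1118 and 58.6% in eGFP-ME31B, above both roX RNAs, and msl-1 was at 37% at 4-5 hr in eGFP-ME31B.

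The msl-1 mRNA, which encodes the scaffold on which the complex assembles, took the other direction. In eGFP-ME31B inputs it stood at 108, 102, 84.2, 39.9 and 39.9 FPKM from 0-1 to 4-5 hr. In w1118 inputs it stood at 17.5, 6.11, 26.3, 31.3 and 17.3 FPKM. Relative to the median gene the 4-5 hr input was lower than the 0-1 hr input by 1.47 in w1118 and by 1.44 in eGFP-ME31B on the log2 scale (values of -1.47 and -1.44), short of 4-fold. In FPKM as deposited the w1118 difference was only -0.02.

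Relative to the median gene, the remaining 3 members changed less between 0-1 and 4-5 hr. This did not hold when inputs were scaled to the added worm RNA, as given below. The msl-3 mRNA, for the chromodomain protein, stood at 76.2, 70.5, 60.0, 50.9 and 53.3 FPKM in eGFP-ME31B inputs and at 29.9, 7.0, 56.4, 49.7 and 50.9 FPKM in w1118 inputs from 0-1 to 4-5 hr. The mle mRNA, for the RNA helicase that remodels roX RNA, stood at 12.5, 8.19, 9.30, 17.4 and 20.0 FPKM in eGFP-ME31B inputs and at 4.88, 1.16, 14.7, 23.4 and 21.8 FPKM in w1118 inputs. The mof mRNA, for the histone H4 lysine acetyltransferase, stood at 20.1, 14.9, 22.6, 24.2 and 23.3 FPKM in eGFP-ME31B inputs and at 7.30, 2.43, 31.9, 18.4 and 16.8 FPKM in w1118 inputs. Relative to the median gene, the 4-5 hr inputs differed from the 0-1 hr inputs by -0.68 to 0.69 on the log2 scale in w1118 and by -0.52 to 0.66 in eGFP-ME31B for these genes.

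**Figure D2:**
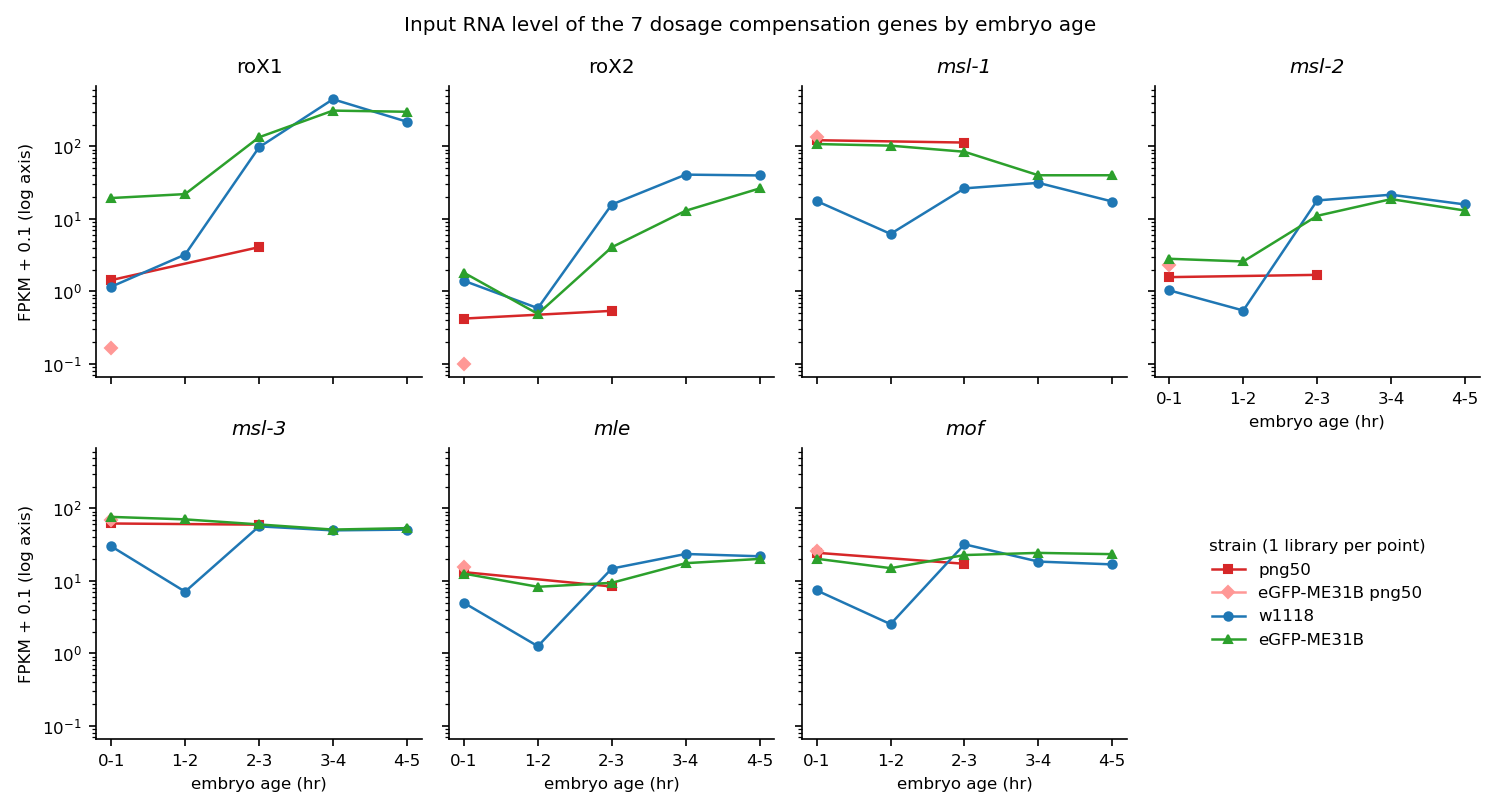
Input level of each of the 7 genes (vertical axis, FPKM + 0.1 on a log axis) by embryo age in hours (horizontal axis), 1 library per point, for png50, eGFP-ME31B png50, w1118 and eGFP-ME31B. At 2-3 hr png50 held 3.97 FPKM of roX1, 0.44 FPKM of roX2 and 1.59 FPKM of msl-2, below the w1118 and eGFP-ME31B inputs of that age for each.

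Counted with 4-fold as the limit, 3 of the 7 members (roX1, roX2 and msl-2) were higher and none was lower at 4-5 hr than at 0-1 hr in each strain. Over all genes the shares past that limit were 18.7% higher and 13.3% lower in w1118, and 21.7% higher and 11.1% lower in eGFP-ME31B. The members' median change was 0.69 in w1118 and 0.66 in eGFP-ME31B, where the median gene is at 0 by construction. At 2-3 hr against 0-1 hr, the same 3 were higher in w1118 (9.4% of genes higher and 11.3% lower), and roX1 alone was higher in eGFP-ME31B (8.56% higher and 4.66% lower). The study's own methods scale inputs to their reads on the worm genome, to allow for global changes in mRNA. Scaling here to the summed worm FPKM without rRNA genes, in place of the median gene, lowered the values of all 7 members. At 4-5 hr roX2 was then at 1.68 and msl-2 at 0.79 in w1118, short of 4-fold, while msl-1 (-3.17) and msl-3 (-2.38) were lower past it. In eGFP-ME31B msl-2 was at 0.99, msl-1 at -2.66 and msl-3 at -1.74 on that scale. The mle mRNA was then at -1.01 in w1118 and -0.55 in eGFP-ME31B, and mof was at -1.95 in w1118 and -1.01 in eGFP-ME31B. Without the 2 w1118 inputs of low sum, the 4-5 hr input can be set against 2-3 hr: in w1118 roX1 was then higher by 1.05, roX2 by 1.2 and msl-2 at -0.31, and no member was past 4-fold. In eGFP-ME31B the same pair gave 1.17 for roX1, 2.70 for roX2 and 0.24 for msl-2.

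The order of levels within a library changed with age. FPKM is per length, so members can be ranked against each other. In the png50, eGFP-ME31B png50 and eGFP-ME31B inputs of 0-1 hr, msl-1 was the highest at 108 to 134 FPKM and msl-3 came next. In the w1118 input of that age msl-3 was the highest at 29.9 FPKM and msl-2 the lowest at 0.93 FPKM. From 2-3 hr on, roX1 was the highest of the 7 in each w1118 and eGFP-ME31B input. In both S2 inputs msl-2 was the highest and roX1 the lowest.

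In png50 embryos roX1, roX2 and msl-2 stayed at low levels, and of these roX1 was higher at 2-3 hr. The roX1 RNA stood at 3.97 FPKM at 2-3 hr, against 1.33 FPKM at 0-1 hr, in png50 inputs. The roX2 RNA stood at 0.44 FPKM at 2-3 hr, against 0.32 FPKM at 0-1 hr, about 5.46 and 3.83 reads, which cannot show a difference at this depth. The msl-2 mRNA stood at 1.59 FPKM at 2-3 hr, against 1.47 FPKM at 0-1 hr. Of these, roX1 was higher by 1.55 on the log2 scale relative to the median gene, a change above that of 97.9% of genes. The msl-2 mRNA was higher by 0.15, and none of the 6 members with a value was past 4-fold (1.6% of genes higher and 1.07% lower). The 13 early zygotic markers summed to 80.6 FPKM in the png50 input of 2-3 hr, against 1173 FPKM in w1118 and 552 FPKM in eGFP-ME31B at that age, so the low roX and msl-2 levels stood beside low levels of zygotic RNAs in general, and their part in the result was not tested.

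Set side by side with w1118 at 2-3 hr, in a table quantified separately, png50 held 3.97 against 97.1 FPKM of roX1, 0.44 against 15.7 FPKM of roX2 and 1.59 against 17.9 FPKM of msl-2. Relative to the median gene these were differences of -4.80, -5.10 and -3.63 on the log2 scale, and these 3 of the 7 members were lower past 4-fold, with none higher (16.8% of genes lower and 13.7% higher). The msl-1 mRNA was the reverse, at 113 FPKM in png50 and 26.3 FPKM in w1118, a difference of 1.88. At 0-1 hr it was already higher in png50 by 1.28, at 122 against 17.5 FPKM. The eGFP-ME31B input of 2-3 hr held 84.2 FPKM of msl-1, and w1118 over eGFP-ME31B was at -1.34 at that age. The part of low msl-1 in the w1118 inputs was not tested. The msl-3 mRNA differed little, at 59.6 FPKM in png50 and 56.4 FPKM in w1118.

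At 0-1 hr, eGFP-ME31B png50 embryos differed from eGFP-ME31B embryos mainly in the roX RNAs. The roX1 RNA was at 0.068 FPKM in eGFP-ME31B png50, against 19.3 FPKM in eGFP-ME31B, and roX2 was listed at 0 in eGFP-ME31B png50, against 1.71 FPKM. These 2 of the 7 members were lower past 4-fold and none was higher (5.31% of genes lower and 1.92% higher). The 5 mRNAs lay between -0.26 (msl-2) and 0.40 (mof) on the log2 scale. In the other 0-1 hr pair, png50 held 1.33 FPKM of roX1 and w1118 held 1.06 FPKM, a difference of -1.21 on the log2 scale relative to the median gene. For roX2 png50 held 0.32 FPKM and w1118 held 1.30 FPKM, a difference of -3.24 that rests on about 3.83 reads in png50 and on the w1118 input of low sum.

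In S2 cells the roX RNAs were split. The roX1 RNA was at 0.071 FPKM in the PABP-series input, about 3.68 reads, and was listed at 0 in the ME31B-series input. It was at 0.013 FPKM in the PABP IP and listed at 0 in the ME31B IP. The roX2 RNA was present in all 4 S2 libraries, at 6.18 FPKM in the PABP-series input and 4.94 FPKM in the ME31B-series input, and at 13.1 FPKM in the PABP IP and 19.3 FPKM in the ME31B IP.

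The S2 levels of the mRNAs were closer to those of 4-5 hr embryos. The msl-2 mRNA was at 18.5 and 24.6 FPKM in the 2 S2 inputs, against 15.7 FPKM in the w1118 input of 4-5 hr. The msl-1 mRNA was at 16.4 and 22.0 FPKM in S2 inputs and at 17.3 FPKM in that embryo input. The msl-3 mRNA was at 11.0 and 11.6 FPKM, against 50.9 FPKM. The mle mRNA was at 13.4 and 15.7 FPKM in S2 inputs, against 21.8 FPKM, and mof at 15.4 and 18.5 FPKM, against 16.8 FPKM.

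Within the table that holds both, the PABP-series S2 input against the w1118 input of 4-5 hr gave -9.56 for roX1, -1.90 for roX2, -1.43 for msl-3 and 1.01 for msl-2 on the log2 scale relative to the median gene. The roX1 value depends on the added 0.1 FPKM, and only roX1 of the 7 was past 4-fold (19.6% of genes lower and 20.9% higher). With the ME31B-series S2 input, roX2 was also lower past 4-fold. The S2 inputs carried 6 of 8 hemocyte markers at 0.5 FPKM or more, with summed levels of 780 and 881 FPKM, against 23.1 FPKM in the w1118 input of 4-5 hr. NimC1 was listed at 0 in both S2 inputs. Of 7 maternal markers, all were at 0.5 FPKM or more in every embryo input and 4 of 7 in the S2 inputs.

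**Figure D3:**
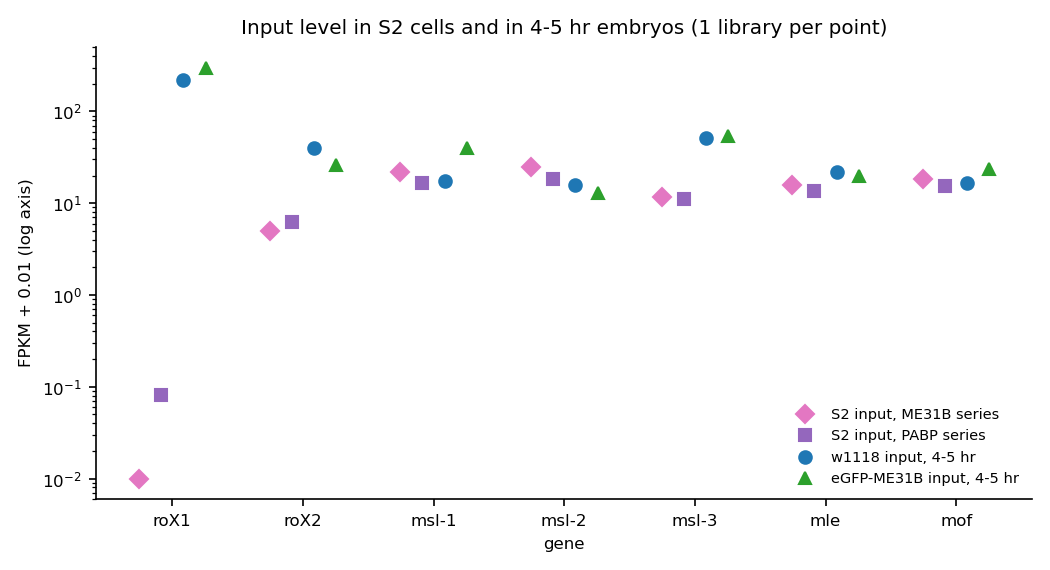
Input level (vertical axis, FPKM + 0.01 on a log axis) of each of the 7 genes (horizontal axis) in the 2 S2 inputs and in the 4-5 hr inputs of w1118 and eGFP-ME31B, 1 library per point. The roX1 RNA was at 0.071 FPKM and listed at 0 in the S2 inputs, against 219 and 300.4 FPKM in the embryos, while roX2 was at 6.18 and 4.94 FPKM in the S2 inputs.

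Recovery with a protein is given as a binding value, log2 of the FPKM in the IP over that in its input, set to 0 at the median gene. The median was taken over the genes above 0.5 FPKM in every library of the series. A member outside that filter was given a value where both of its own libraries were above 0.5 FPKM, which applies to roX2 in all embryos and to msl-2 in w1118 embryos. The filter was passed by 6 of the 7 members in the eGFP-ME31B embryo and S2 series and by 5 of 7 in the w1118 and eGFP-ME31B png50 series. Past 2-fold is used as a rule of size.

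In S2 cells, roX2 was the member most recovered with ME31B. It was at 19.3 FPKM in the IP, against 4.94 FPKM in the input, a binding value of 2.07 that exceeded 98.9% of the genes tested. The mle mRNA followed at 29.7 FPKM in the IP, against 15.7 FPKM in the input, a value of 1.02. The msl-1, msl-2 and msl-3 mRNAs had values of 0.78, 0.50 and 0.49, and mof was at -0.23. So 2 of the 6 members with a value were past 2-fold, both higher (15.9% of genes past 2-fold), and the members' median was 0.64.

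In eGFP-ME31B embryos, mle was lower past 2-fold with ME31B at each age and mof at 4 of the 5 ages. Of all genes, 18.9, 24.9, 28, 20.6 and 20.1% were lower past 2-fold from 0-1 to 4-5 hr. The mle mRNA had 6.42, 3.70, 4.51, 4.94 and 5.20 FPKM in the IPs from 0-1 to 4-5 hr, against 12.5, 8.19, 9.30, 17.4 and 20.0 FPKM in the inputs. Its binding values were -1.10, -1.2, -1.23, -2.18 and -2.22. The share of genes below it was 17, 21.3, 23.5, 3.15 and 3.17% at these ages. The mof mRNA had 8.94, 2.49, 3.96, 20.1 and 14.0 FPKM in the IPs, with binding values of -1.31, -2.63, -2.70, -0.63 and -1.01. Below mof lay 13.5, 5.61, 4.57, 30.5 and 19.8% of genes. The lowest mof values were at 1-2 and 2-3 hr, where mle was not at its lowest.

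Of the RNAs that were higher at later ages, roX1 and msl-2 lay within 2-fold of the median gene with ME31B at each age, and roX2 did so except at 2-3 hr. The roX1 RNA had 16.5, 22.9, 191, 233 and 243 FPKM in the IPs from 0-1 to 4-5 hr and binding values of -0.36, 0.02, 0.33, -0.78 and -0.58. The msl-2 mRNA had values of -0.41, -0.24, -0.36, 0.06 and 0.19. The roX2 RNA had 0.21 at 0-1 hr, 1.28 at 2-3 hr, -0.22 at 3-4 hr and -0.08 at 4-5 hr, and its 1-2 hr input was too low for a value. The msl-3 mRNA moved between 0.50 and -0.22 and msl-1 between -0.67 and -1.2.

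Counted over the members, 2 of 7 were past 2-fold with ME31B at 0-1 hr (27.3% of all genes), 2 of 6 at 1-2 hr (40.6%), 3 of 7 at 2-3 hr (52%), 1 of 7 at 3-4 hr (41.6%) and 3 of 7 at 4-5 hr (41.5%). These shares lay on either side of the share of all genes, which is taken over genes that pass the filter, while roX2, counted at 2-3 hr, is outside it. The medians of the members ran from -0.63 to -0.36. In eGFP-ME31B png50 embryos of 0-1 hr none of the 5 members with a value was past 2-fold (20.5% of genes), with mle at -0.90, msl-1 at -0.88, mof at -0.73, msl-2 at -0.55 and msl-3 at 0.21. The roX RNAs were too low for a value there.

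With PABP in w1118 embryos, roX1 was above and mof below the median gene at each age. The roX1 RNA had 5.38, 27.1, 204, 419 and 407 FPKM in the IPs from 0-1 to 4-5 hr, against 1.06, 3.12, 97.1, 447 and 219 FPKM in the inputs. Its binding values were 1.01, 0.38, 2.61, 0.54 and 1.2, above 0 at each age, and at 2-3 hr it exceeded 99.4% of the genes tested. The value at 0-1 hr rests on an input of about 58.1 reads, and with the eGFP-ME31B input of that age as divisor it was -1.43.

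The mof mRNA had 4.28, 2.78, 1.88, 2.92 and 4.47 FPKM in the PABP IPs, against 7.30, 2.43, 31.9, 18.4 and 16.8 FPKM in the inputs. Its binding values of -2.11, -2.54, -2.55, -2.02 and -1.60 were past 2-fold at each age, and at most 4.27% of genes lay below it. The mof mRNA was thus below the median gene with ME31B and with PABP at each of the 5 ages, where the IPs of different proteins come from different strains and share no library.

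The roX2 RNA differed from roX1. Its PABP binding values were -1.50 at 2-3 hr, -2.10 at 3-4 hr and -1.19 at 4-5 hr, from 1.91, 6.13 and 14.1 FPKM in the IPs and 15.7, 40.7 and 39.6 FPKM in the inputs. At these ages roX1 was above and roX2 below the median gene. At 2-3 hr this depends on the input used: with the eGFP-ME31B input, which held less roX2, the value was 1.12. In S2 cells, by contrast, roX2 had 13.1 FPKM in the PABP IP, against 6.18 FPKM in the input, and a value of 1.55 that exceeded 92.3% of genes.

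The mle and msl-2 mRNAs changed sides with age in the PABP IPs. The mle mRNA was at -1.35 and -1.34 at 0-1 and 1-2 hr and at 0.22, 0.26 and 0.21 from 2-3 to 4-5 hr. The msl-2 mRNA was at -1.33 at 0-1 hr and at 0.91, 0.51 and 0.34 from 2-3 to 4-5 hr. The early values rest on the w1118 inputs of low sum. The msl-1 and msl-3 mRNAs, abundant at 0-1 hr, were at 0.43 and -0.33 at 0-1 hr, at -0.97 and -1.43 at 2-3 hr, at -1.19 and -0.54 at 3-4 hr, and at -0.48 and -0.83 at 4-5 hr.

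Counted over the members, 4 of 6 were past 2-fold with PABP at 0-1 hr (28.2% of all genes), 2 of 5 at 1-2 hr (32.9%), 4 of 7 at 2-3 hr (32.8%), 3 of 7 at 3-4 hr (23.4%) and 3 of 7 at 4-5 hr (23.8%). These counts are of few members and take in some outside the filter, msl-2 at 0-1 hr and roX2 from 2-3 hr on. The percentages are of genes that pass the filter, so the counts are not read as a result. The mof mRNA was counted at each age. In S2 cells 1 of 6 members, roX2, was past 2-fold (25.5% of genes), and the 5 mRNAs lay between -0.84 (msl-3) and -0.45 (mle). The mof value in S2 cells was -0.60, against -1.60 in w1118 embryos of 4-5 hr.

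**Figure D4:**
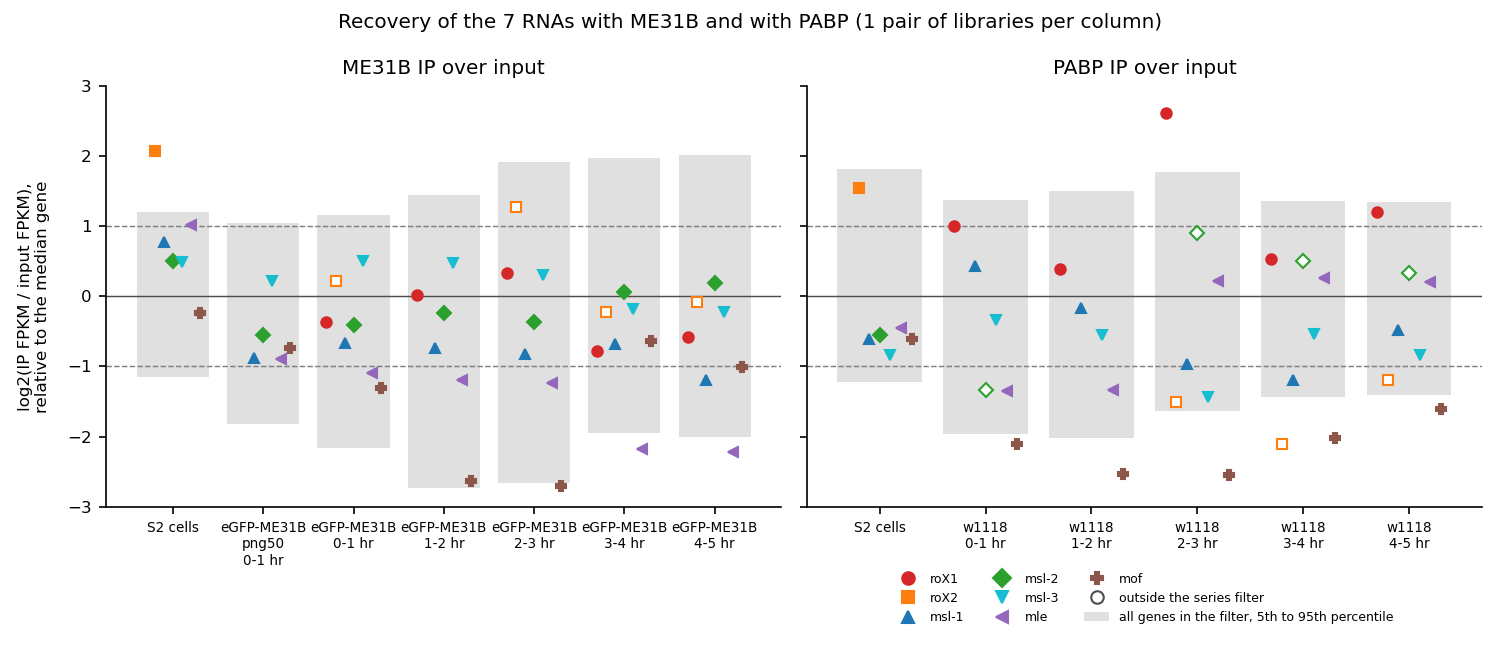
Binding value of each member (vertical axis, log2 of IP over input FPKM relative to the median gene) for ME31B in S2 cells, eGFP-ME31B png50 and eGFP-ME31B embryos, and for PABP in S2 cells and w1118 embryos (horizontal axes), 1 pair of libraries per column. Grey bars span the 5th to the 95th percentile of all genes in the filter, dashed lines mark 2-fold, and open symbols are members outside the filter. With PABP, mof lay below the grey bars in all 5 embryo columns at -1.60 to -2.55, and roX2 in S2 cells stood at 2.07 with ME31B and 1.55 with PABP.

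Genes that regulate or work with the complex were examined as lists. The first list held 14 genes: Sxl, Unr, Hrb27C, Clamp, Trl, JIL-1, Set2, Iswi, Top2, Mtor, Nup153, Pof, Dsp1 and pho. Among them Sxl, Unr and Hrb27C encode proteins that act on msl-2 mRNA in females, Clamp encodes the zinc-finger protein that guides the complex to the X chromosome, and Pof encodes the protein that paints the fourth chromosome. At 4-5 hr against 0-1 hr none was higher and 1 (Set2, at -2.56) lower past 4-fold in w1118 (18.7% of all genes higher and 13.3% lower). In eGFP-ME31B 1 (Iswi, at 2.28) was higher and none lower (21.7% higher and 11.1% lower). At earlier ages in w1118, Unr (2.68) was higher past 4-fold at 2-3 hr (9.4% of all genes higher). At 3-4 hr Dsp1 (2.58), Mtor (2.38) and pho (2.1) were, above 87.8, 86 and 83.9% of genes. The divisor, the w1118 input of 0-1 hr of low sum, held 0.71, 6.17, 3.64 and 4.56 FPKM of Unr, Dsp1, Mtor and pho. The eGFP-ME31B input of that age held 26.1, 45.9, 18.9 and 110 FPKM. In eGFP-ME31B none of the 14 was past 4-fold at 2-3 or 3-4 hr. With ME31B in eGFP-ME31B embryos, 7 of 14 were lower past 2-fold at 0-1 hr and 11 of 14 at each later age, against 18.9, 24.9, 28, 20.6 and 20.1% of all genes from 0-1 to 4-5 hr. The list's medians there were -1.02, -1.88, -2.0, -1.56 and -1.95 from 0-1 to 4-5 hr. Pof was the highest of the list at each of these ages, between 0.26 and 1.55. In S2 cells none of the 14 was lower and 4 were higher past 2-fold with ME31B (8.11% of all genes higher), with a median of 0.46. With PABP in w1118 embryos, Iswi was the lowest of the list at each age, between -3.46 and -1.34.

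The second list held the 6 genes of the NSL complex (nsl1, dgt1, Rcd1, Rcd5, MBD-R2 and wds), in which MOF acts on promoters in both sexes. At 4-5 hr against 0-1 hr none was past 4-fold in either strain, with medians of -0.68 in w1118 and -0.09 in eGFP-ME31B. With ME31B in eGFP-ME31B embryos, 1 of 6 was lower past 2-fold at 0-1 hr and 3 of 6 at each later age. The shares of all genes were 18.9, 24.9, 28, 20.6 and 20.1% from 0-1 to 4-5 hr. With PABP in w1118 embryos 1 of 6 was lower past 2-fold at 0-1 hr, 3 of 6 at 1-2 hr, 2 of 6 at 2-3 hr and none at 3-4 and 4-5 hr, against 17.8, 18.6, 15.9, 11.7 and 12.1% of all genes from 0-1 to 4-5 hr. The mof values, past 2-fold at each age with PABP, were lower than the lowest NSL gene at 4-5 hr (dgt1, at -0.68).

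The third list held 10 other named non-coding RNAs, of which up to 7 had values. At 4-5 hr against 0-1 hr, 5 of 7 were higher past 4-fold in w1118 (18.7% of all genes) and 4 of 7 in eGFP-ME31B (21.7%), with medians of 3.06 and 2.77, and none was lower. The stress-response RNA Hsromega was higher by 5.09 in w1118 and 4.00 in eGFP-ME31B. With PABP at 4-5 hr the list was split: lncRNA:noe (2.12) was the highest, Hsromega (1.49) and lncRNA:bxd (1.24) were also higher past 2-fold, and snRNA:7SK (-7.07), RNaseP:RNA (-7.34) and RNaseMRP:RNA (-7.75) were lower. The roX1 value of 1.2 at that age lay with the first group and the roX2 value of -1.19 between the groups. At 2-3 hr, where roX1 was at 2.61, lncRNA:noe (2.63), lncRNA:bxd (1.98), Hsromega (1.96) and lncRNA:iab8 (1.82) were also higher past 2-fold with PABP. The snRNA:7SK (-7.69), RNaseP:RNA (-7.39) and RNaseMRP:RNA (-7.08) were lower there. In S2 cells Hsromega was at 1.11 with PABP and 0.24 with ME31B, against 1.55 and 2.07 for roX2.

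The genes whose level was most like that of each rising member were taken from 7443 genes with at least 5 FPKM in 1 or more of the 10 embryo inputs of w1118 and eGFP-ME31B. The measure was Pearson's r over these 10 libraries, which share ages and the w1118 libraries of low sum, so r is given as a description only. For roX1 they were CG14995 (r = 0.993), CG7222 (0.992) and Hsromega (0.992). Only Hsromega came close to the scale of the roX1 change, with 0.71 FPKM at 0-1 hr and 75.6 FPKM at 4-5 hr in w1118. For roX2 they were CG17265 (0.989), vir (0.984) and loco (0.981). For msl-2 they were Tace (0.994), Pepck (0.993) and a gene that the tables list under a date in place of a symbol (0.992). Over the 8 libraries without the w1118 inputs of 0-1 and 1-2 hr, these values lay between 0.983 and 0.995, but the order changed: Hsromega was then the 2nd gene in likeness to roX1, and the 8 others took places 5 to 26, so the 3 genes named for a member were not its nearest on those libraries. Among the members, msl-2 had r = 0.939 with roX1 and 0.923 with roX2, and msl-1 had 0.084 and -0.43.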

How the data were processed

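RNA from embryo lysates, S2 cell lysates and their ME31B or PABP immunoprecipitates was depleted of rRNA and sequenced as strand-specific 50-nt single-end reads. Worm RNA was to be added to each sample per the protocol, but it made up only 0.000214 to 0.00446% of FPKM in the 4 libraries of the transfected S2 cells and eGFP-ME31B png50. The authors deposited FPKM values per gene in 3 tables, and per the labels their processing used bcl2fastq 2.17, FastQC 0.11.5, STAR 2.5.2a and Cufflinks 2.2.1 with the dm6 and ce10 assemblies. Here all 28 FPKM columns were matched to samples by their labels, and 0 columns were left unmatched. Binding was log2(IP/input FPKM) without pseudocount, centred on the median gene, where only genes whose FPKM exceeded 0.5 in all libraries of the series counted. Input changes were log2 ratios of FPKM + 0.1, centred on the median gene, where a gene counted if it reached 0.5 FPKM at any age of the strain (in either library, between strains or with S2 cells). Past 2-fold (binding) or 4-fold (inputs) is a rule of size, since each group has 1 library. Named were all 7 members, the 3 genes most correlated with roX1, roX2 and msl-2, and the extremes of each list. The members and lists were chosen with earlier results of these data known. Read numbers are approximate, assume 200-nt fragments and the longest transcript, and were not used in any value. The functions were tested on simulated data. Python 3.11.15, numpy 2.4.6 and pandas 2.3.3 were used, with Ensembl release 115. No sequences are shown.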

Additional observations from a re-analysis of the deposited data

Results flagged for a closer look

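Binding values in S2 cells and in embryos of 4-5 hr were past 2-fold on opposite sides of the median gene for 2 members. Others also differed in sign, but not past 2-fold in both. The ME31B binding value of mle was 1.02 in S2 cells and -2.22 in eGFP-ME31B embryos, a difference of 3.24 on the log2 scale. The PABP binding value of roX2 was 1.55 in S2 cells and -1.19 in w1118 embryos, a difference of 2.74. Each rests on 1 pair of libraries per group, and neither difference was tested. The mle value in S2 cells was only just past 2-fold. With ME31B, the 4 of 14 partner genes higher past 2-fold in S2 cells were also lower past it at 4-5 hr. These were Set2 (1.81 and -2.12), Unr (1.47 and -2.33), Mtor (1.09 and -2.59) and Nup153 (1.05 and -2.21). The share of all genes on opposite sides was not counted, so the 2 members are not read as set apart.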

How the results depend on the processing

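No leave-one-out or paired analysis was possible because each group has 1 library and no replicate numbers. A moved value of a member is one that shifted by more than the SD of 0.45 (log2) between the S2 inputs. Over all alternatives, 567 of the member values stayed within that SD, 223 moved and 7 that had been past the limit turned sign. Another 70 values that had been short of the limit also changed sign, 31 of them with Act5C centring, 11 with the other strain's input and 7 with worm RNA. The pair filter, no minimum and the pseudocount of 0.1 moved none of the 83 binding values, Act5C centring moved 74 of the 83 and turned 3, the other strain's input moved 36 of 82 and turned 3, and worm RNA scaling moved all 34 input changes. Counts of members past the limit pool those higher and lower, so an unchanged count can hold different members. With worm RNA at 4-5 hr in w1118, roX2 (1.68) and msl-2 (0.79) dropped out, and msl-1 (-3.17) and msl-3 (-2.38), both lower, came in. In eGFP-ME31B msl-1 (-2.66) took the place of msl-2 (0.99). The counts were within 1.5 times of the reported ones in 103 of the settings tried, and the 19 others follow. For ME31B in eGFP-ME31B embryos, the count of 2 at 0-1 hr became 1 with a pseudocount of 1 and 4 with the w1118 input as divisor, the count of 2 at 1-2 hr became 4 with centring on Act5C, the count of 1 at 3-4 hr became 2 with Act5C and 3 with the w1118 input, and the count of 3 at 4-5 hr became 1 with the w1118 input. In eGFP-ME31B png50 the count of 0 became 1 with no minimum and 5 with Act5C, and in S2 cells the count of 2 became 1 with no minimum or a pseudocount of 1 and 4 with Act5C. For PABP, the count of 2 at 1-2 hr became 1 with the eGFP-ME31B input, and the S2 count of 1 became 2 with no minimum. For inputs, the w1118 count of 3 at 2-3 hr became 1 with worm RNA, the eGFP-ME31B count of 1 at 2-3 hr became 2 with a filter of 0.5 FPKM in both libraries, and the S2 count of 1 became 3 against the w1118 input of 0-1 hr and 2 with the ME31B-series S2 input. Against 2-3 hr in place of 0-1 hr, chosen after seeing the data, the 4-5 hr count of 3 became 0 in w1118 and 1 in eGFP-ME31B. The values past the limit that turned sign were, for ME31B with Act5C centring, mle at 1-2 hr (0.12) and 2-3 hr (0.57) and mof at 4-5 hr (0.0608), for ME31B with the w1118 input roX2 at 2-3 hr (-1.16), for PABP with the eGFP-ME31B input roX1 at 0-1 hr (-1.43) and roX2 at 2-3 hr (1.12), and msl-2 in w1118 against 2-3 hr (-0.31). The causes were not tested. With 1 library per group, no spread between samples can be given for any value, and differences that rest on a few reads, such as those of roX1 in S2 cells (about 3.68) and in eGFP-ME31B png50 (about 3.25), have an uncertain size.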

Other observations

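The X chromosome as a whole is the target of the complex, so the level of X-linked genes was set beside that of autosomal genes in each input, over genes with at least 0.5 FPKM. The median X-linked FPKM divided by the median autosomal FPKM was 0.965 at 0-1 hr and 0.95 at 2-3 hr in png50 inputs, and 0.979 at 0-1 hr in eGFP-ME31B png50. In w1118 inputs the ratio was 0.971, 0.882, 0.934, 0.807 and 0.917 from 0-1 to 4-5 hr, and in eGFP-ME31B inputs 0.962, 0.95, 0.943, 0.872 and 0.863. In S2 inputs it was 0.868 in the PABP series and 0.86 in the ME31B series. The ratio was lower at 4-5 hr than at 0-1 hr in both strains, and the set of genes above 0.5 FPKM changed with age: 1256 X-linked genes were counted in the w1118 input of 4-5 hr, against 986 in that of 0-1 hr. The values are a description with no test, because each input is 1 library.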
